A study of Mus musculus with 2 samples.

Results

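The genes described here are 40 mouse genes of the cell cycle and DNA replication, read in RNA of the nucleoplasm, the soluble part of the nucleus, of bone marrow-derived macrophages. They were taken by gene symbol from a named list and not by their level, and each was found, so that they make up 40 of 55536 gene records and 40 of 22015 nuclear protein-coding genes. Macrophages grown from marrow of C57BL/6J mice, an inbred strain, had received Lipid A at 100 ng/ml for 12 h, a washout of 12 h and Lipid A again at 100 ng/ml for 30 min. Lipid A is the part of bacterial lipopolysaccharide that the receptor TLR4 binds. All cells were of this 1 group, in 2 libraries called replicates 1 and 2, so no untreated or once-treated cells stand beside them and no p-value is given. The labels give both replicates the same donor identifier and separate biosamples, and RNA inputs of 1 µg for replicate 1 and 500 ng for replicate 2. Nothing used here says if the cells were of different mice or dishes, so technical and biological spread between replicates cannot be told apart. The libraries hold bulk RNA, in which fewer dividing cells and less RNA per dividing cell cannot be told apart.

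In the cell cycle, D-type cyclins with the kinases Cdk4 and Cdk6 phosphorylate the retinoblastoma protein in G1 and free E2F factors, which switch on the genes of DNA replication. Cyclin E with Cdk2, and later cyclins A and B with Cdk1, then carry the cell through S phase and into mitosis, while the CIP/KIP and INK4 inhibitors hold these kinases back. Bone marrow-derived macrophages divide under the growth factor CSF-1, and ligands of TLR4 are known to halt that division.

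The libraries held 23845991 gene counts in replicate 1 and 20675294 in replicate 2. Levels are given as TPM, which divides each gene's counts by transcript length and brings every library to the same total, so that genes can be compared with each other. In this nuclear RNA the small RNA Rn7sk alone took 31.7% of TPM in replicate 1 and 30.6% in replicate 2, and nuclear protein-coding genes together took 18.3% and 21.9%, so a TPM of 1 is a larger share of mRNA here than in whole-cell RNA. Mitochondrial genes held 2.91% of counts in replicate 1 and 6.91% in replicate 2. All 8 macrophage markers (among them Adgre1, Cd68 and Csf1r) reached 1 TPM in both libraries, with sums of 2097 and 3526 TPM. Of 8 markers of dividing myeloid progenitors none did, with sums of 0.66 and 0.62 TPM, and Elane and Ctsg were at 0 in both. Of the 5 markers each of T and NK cells, B cells, neutrophils, fibroblasts and erythroid cells, 1 erythroid marker (Alas2) reached 1 TPM in both libraries. The summed level of each of these 5 lists lay between 0.02 and 2.03 TPM in replicate 1 and between 0.03 and 3.28 TPM in replicate 2.

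The genes fall into 4 classes by role: 5 G1 kinase genes (the D cyclins, Cdk4 and Cdk6), 16 G1/S genes of E2F activity and replication, 13 G2/M genes of mitosis, and 6 inhibitors. Many G1/S and G2/M promoters are known to be switched by E2F factors and by the DREAM complex, which represses cell cycle genes in resting cells. DREAM is recruited through E2F sites and through the cell cycle homology region (CHR), and CCAAT boxes, bound by NF-Y, often lie close to a CHR. RefSeq promoter windows of GRCm38.p6, 250 bases before to 50 after the start, were matched for 33 of the 40 genes, and those of Ccnd1, Ccnd2, Ccne2, Mcm4, Aurkb, Ccna2 and Cdkn1c were not analysed here. In 25 of the 33 the window's start lay within 50 bases of the start of the leading transcript. A promoter of each pattern is printed below, 5′ to 3′ and ending at the base before the start, for a G1/S gene (Mcm6, minus strand, chr1:128359706-128359955), G2/M genes (Mki67, minus strand, chr7:135716380-135716629, and Ccnb2, minus strand, chr9:70421555-70421804) and an inhibitor (Cdkn1a, plus strand, chr17:29093519-29093768). Capitals mark the letters of an E2F core, CHR or CCAAT match on either strand.
Mcm6: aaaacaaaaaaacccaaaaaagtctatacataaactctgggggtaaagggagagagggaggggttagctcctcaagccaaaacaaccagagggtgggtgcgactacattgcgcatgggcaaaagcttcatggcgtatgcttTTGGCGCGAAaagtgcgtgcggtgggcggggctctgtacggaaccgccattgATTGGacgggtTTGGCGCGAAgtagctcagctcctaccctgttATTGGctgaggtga
Mki67: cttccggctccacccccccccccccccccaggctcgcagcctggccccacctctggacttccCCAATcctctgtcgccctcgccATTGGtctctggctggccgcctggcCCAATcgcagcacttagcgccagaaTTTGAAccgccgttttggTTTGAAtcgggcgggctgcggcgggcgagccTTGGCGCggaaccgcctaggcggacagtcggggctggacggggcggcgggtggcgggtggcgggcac
Ccnb2: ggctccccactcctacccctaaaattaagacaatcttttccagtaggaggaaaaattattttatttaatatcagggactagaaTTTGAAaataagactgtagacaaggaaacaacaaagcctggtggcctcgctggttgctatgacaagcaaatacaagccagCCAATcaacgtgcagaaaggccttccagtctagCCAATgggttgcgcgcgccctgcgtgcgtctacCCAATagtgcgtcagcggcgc
Cdkn1a: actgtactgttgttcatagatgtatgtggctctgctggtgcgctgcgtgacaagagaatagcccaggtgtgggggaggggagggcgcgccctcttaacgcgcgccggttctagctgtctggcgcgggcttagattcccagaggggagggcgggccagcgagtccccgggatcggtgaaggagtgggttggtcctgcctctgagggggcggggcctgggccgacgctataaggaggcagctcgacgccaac

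The Mcm6 promoter holds 2 runs in which a pair of E2F core letters overlap on opposite strands, and 2 CCAAT boxes read on the reverse strand. The Mki67 promoter holds 2 CHR matches, 1 E2F core and 3 CCAAT boxes, and the Ccnb2 promoter 1 CHR and 3 CCAAT boxes. The Cdkn1a stretch holds none of the 3 motifs but 2 GC boxes (GGGCGG, not in capitals). Exons of Cdkn1a overlap AC167363.2, a record of unclear coding status on the opposite strand. The E2F core was searched on either strand as the letters TTCCCGC. The search also took the same letters with other middle bases, written TTGGCGC in the Mcm6 promoter. The remaining forms searched were TTCGCGC, in which the middle is CG, and also TTGCCGC with GC there. Over the 33 matched genes, the E2F core was found in 8 of 14 G1/S windows, 3 of 11 G2/M windows, 2 of 5 inhibitor windows and 0 of 3 G1 kinase windows. It was found in 12.6% of the windows of 16519 protein-coding genes and in 18.0% of those of genes at 1 TPM or more. The CHR letters (TTTGAA) were found in 8 of 11 G2/M windows and 2 of 14 G1/S windows, and in none of the inhibitors or G1 kinases, against 15.5% of all windows. A CCAAT box (CCAAT) was found in 10 of 11 G2/M windows, 10 of 14 G1/S windows, 2 of 5 inhibitor windows and 1 of 3 G1 kinase windows, against 38.5% of all. CHR and CCAAT letters stood together in the same 8 of 11 G2/M windows that held a CHR, against 6.31% of all windows and 4.58% of the windows of genes at 1 TPM or more. GC boxes were found in 11 of 14 G1/S, 9 of 11 G2/M, 5 of 5 inhibitor and 2 of 3 G1 kinase windows, against 48.4% of all and 66.5% of the windows of genes at 1 TPM or more. These matches are of letters only, and binding was not measured.

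Transcripts of the cycle were unevenly represented: the inhibitor Cdkn1a stood far above the rest, the G1 kinases and the replication genes were at low to moderate levels, and most genes of mitosis were below 1 TPM. Of the 40 genes, 20 reached 1 TPM in both libraries, 15 were below 1 TPM in both and 5 differed between libraries, beside 41.8% of all nuclear protein-coding genes at 1 TPM or more in both. The median level was 1.26 TPM in replicate 1 and 2.21 TPM in replicate 2 for the 40 genes, against 0.27 and 0.33 TPM for all nuclear protein-coding genes. With TPM taken over nuclear protein-coding genes alone, 37 of the 40 genes reached 1, beside 50.5% of all such genes, and the other 3 were Ccnb2, Cdc20 and Cdkn2a.

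**Figure D1:**
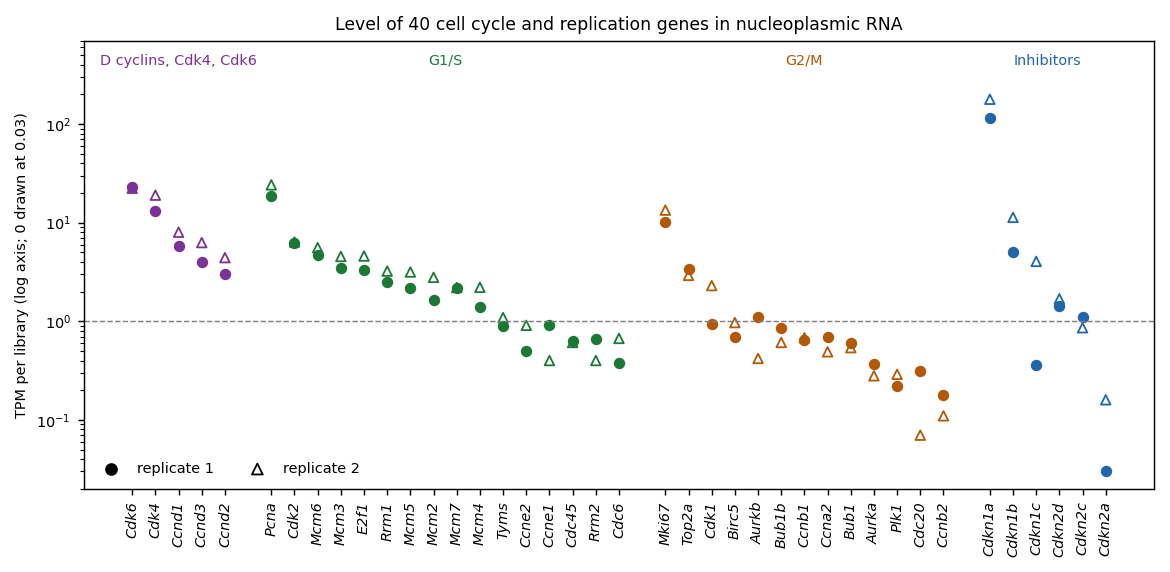
Level of each of the 40 genes in TPM (vertical log axis; 0 drawn at 0.03), by role class and by mean level within it; filled circles are replicate 1, open triangles replicate 2, and the dashed line is 1 TPM. Cdkn1a stands highest at 114 and 179 TPM, all 5 G1 kinase genes lie above the line, and 9 of 13 G2/M genes lie below it in both libraries.

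All 5 G1 kinase genes reached 1 TPM in both libraries. Cdk6 (chr5:3341485-3531008, plus strand), which with D cyclins phosphorylates the retinoblastoma protein, was at 22.8 TPM in replicate 1 and 22.3 TPM in replicate 2. Its longest transcript, Cdk6-202 of 11525 bases, held 9.97 and 14.5 TPM of these. In replicate 1 the short Cdk6-203 and Cdk6-205, of 697 and 425 bases, held 8.16 and 2.88 TPM on 148 and 21.9 of 4689 counts. Cdk4 (chr10:127063534-127067920, plus strand), the other kinase that acts with D cyclins, was at 13.3 and 19.0 TPM, below Cdk6 in each library by gene TPM. Cyclin D1 (Ccnd1, chr7:144929931-144939925, minus strand), the D cyclin that growth factors typically induce, was at 5.79 and 8.01 TPM. Ccnd3 was at 3.99 and 6.28 TPM and Ccnd2 at 3.05 and 4.42 TPM. The 3 D cyclins kept the order Ccnd1, Ccnd3, Ccnd2 in both libraries, but their means of 6.90 ± 1.57, 5.13 ± 1.62 and 3.73 ± 0.969 TPM (SD, n = 2) came from ranges that overlapped between neighbours. Summed TPM of Cdk4 and Cdk6 was 2.81 times that of the D cyclins in replicate 1 and 2.21 times in replicate 2. These ratios include the TPM of short transcripts of both kinases. All 5 genes overlap an exon of a gene on the opposite strand (Ccnd1 shares 1100 bases with LTO1, and Cdk4 641 bases with Tspan31), and their counts may include reads of that gene, since no source used here names the strand setting.

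Of the 16 G1/S genes, 10 reached 1 TPM in both libraries, 5 were below in both, and Tyms differed. Pcna (chr2:132249162-132253314, minus strand), the sliding clamp of the DNA polymerases, was at 18.8 TPM in replicate 1 and 24.2 TPM in replicate 2, the highest of the class in each. Cdk2, the kinase partner of cyclin E, came next at 6.24 and 6.37 TPM, on a record that shares 34 bases with Pmel (4 and 0 counts). The gene of the E2F activator E2f1 was at 3.33 and 4.59 TPM.

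The 6 subunits of the MCM ring, the replicative helicase, reached 1 TPM each in both libraries but were not level with each other. Mcm6 (chr1:128331590-128359664, minus strand) was highest at 4.72 TPM in replicate 1 and 5.58 TPM in replicate 2. Mcm3 followed at 3.44 and 4.54 TPM, and Mcm4 was lowest in replicate 1 at 1.40 TPM and near the lowest in replicate 2 at 2.21 TPM. The highest subunit was 3.37 times the lowest in replicate 1 and 2.54 times in replicate 2. Between these, Mcm5 was at 2.18 and 3.16 TPM, Mcm7 at 2.20 TPM in both libraries, and Mcm2 at 1.65 and 2.79 TPM. Mcm7 shares 321 bases with Ap4m1, which had 616 and 422 counts against 129 and 110 of Mcm7. Mcm6 and Mcm3 kept the top places, whereas the order of the other 4 changed between libraries. Pcna was 7.24 and 7.08 times the mean of the 6 subunits.

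Genes of nucleotide supply and of origin firing came at several levels. Rrm1, the large subunit of ribonucleotide reductase, was at 2.53 TPM in replicate 1 and 3.23 TPM in replicate 2, whereas Rrm2, the small subunit whose expression is known to peak in S phase, was at 0.66 and 0.40 TPM on 40 and 19 counts. The libraries did not overlap between these subunits of the same enzyme. Tyms, which makes thymidylate, was at 0.89 and 1.09 TPM. Cdc6, which helps load the MCM ring, was lowest of the class by mean at 0.38 and 0.67 TPM, and Cdc45, a helicase cofactor, was at 0.63 and 0.61 TPM. Ccne1 was at 0.91 and 0.40 TPM and Ccne2 at 0.50 and 0.91 TPM, so the E cyclins changed places between libraries.

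Of the 13 G2/M genes, 2 reached 1 TPM in both libraries, 9 were below in both, and Cdk1 and Aurkb differed. Mki67 (chr7:135689784-135716361, minus strand), which coats mitotic chromosomes and is widely used to mark dividing cells, was at 10.1 TPM in replicate 1 and 13.4 TPM in replicate 2, on 3756 and 3627 counts. Top2a, the topoisomerase that untangles sister chromatids, was at 3.38 and 2.92 TPM. Cdk1, the kinase of mitotic entry, was at 0.93 and 2.30 TPM on 40 and 51 counts. Mki67 was thus above every other G2/M gene in both libraries.

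Birc5, the survivin subunit of the chromosomal passenger complex, was at 0.69 TPM in replicate 1 and 0.97 TPM in replicate 2, and its partner kinase Aurkb at 1.11 and 0.42 TPM. The B cyclins that activate Cdk1 were at 0.64 and 0.68 TPM for Ccnb1 and at 0.18 and 0.11 TPM for Ccnb2. Cdc20, the activator of the anaphase-promoting complex, was at 0.31 and 0.07 TPM on 8 and 3 counts. Plk1, the polo kinase of mitosis, was at 0.22 and 0.29 TPM, and the spindle kinase Aurka at 0.37 and 0.28 TPM. Ccna2 was at 0.70 and 0.49 TPM and the checkpoint genes Bub1 and Bub1b at 0.60 and 0.54 TPM and at 0.86 and 0.61 TPM. At these counts the order of the 11 genes under Top2a changed between libraries. Ccna2 shares 510 bases with Exosc9, which had 228 and 235 counts against 54.2 and 37.2 of Ccna2. Cdc20 shares 53 bases with Elovl1, which had 978 and 1181 counts.

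Of the 6 inhibitors, 3 reached 1 TPM in both libraries (Cdkn1a, Cdkn1b and Cdkn2d). Cdkn1a (chr17:29090976-29100727, plus strand), a CIP/KIP inhibitor and a p53 target that also binds Pcna, was at 114 TPM in replicate 1 and 179 TPM in replicate 2, or 146 ± 45.4 TPM (SD, n = 2). It ranked 230 and 151 among 22015 nuclear protein-coding genes, and it alone made 47.3% and 52.1% of the TPM of all 40 genes. Its level was 2.64 and 3.57 times that of Cdk1, Cdk2, Cdk4 and Cdk6 together, and 22.6 and 15.8 times that of Cdkn1b. A stretch of 273 bases of its exons overlaps AC167363.2, a record with 1549 and 918 counts.

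Cdkn1b (chr6:134920401-134925513, plus strand), the CIP/KIP inhibitor known to build up in resting cells, was at 5.05 TPM in replicate 1 and 11.3 TPM in replicate 2. Cdkn1c (chr7:143458339-143461050, minus strand), the imprinted CIP/KIP gene, was at 0.36 TPM on 23 counts and 4.05 TPM on 185 counts. Among the INK4 genes, which block Cdk4 and Cdk6, Cdkn2d was at 1.42 and 1.69 TPM and Cdkn2c at 1.11 and 0.86 TPM. Cdkn2a had 0 counts in replicate 1 and 3 counts in replicate 2 (0.16 TPM), neither above the 3 counts that a count of 0 allows, which equal 0.126 and 0.145 CPM. The CIP/KIP genes were thus ordered Cdkn1a, Cdkn1b, Cdkn1c in both libraries, and the INK4 genes Cdkn2d, Cdkn2c, Cdkn2a.

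Set by class, the G1 kinase genes had the highest median, 5.79 TPM in replicate 1 and 8.01 TPM in replicate 2. The inhibitors had medians of 1.27 and 2.87 TPM, the G1/S genes 1.92 and 2.50 TPM, and the G2/M genes 0.69 and 0.54 TPM. On the log2(TPM + 0.1) scale the median of the G2/M genes was below that of the G1/S genes by 1.34 in replicate 1 and 2.01 in replicate 2 (difference -1.68 ± 0.48, SD, n = 2). The median of the G1 kinases was above that of the G1/S genes by 1.56 and 1.65 (1.61 ± 0.064). The median of the inhibitors minus that of the G1/S genes was -0.56 in replicate 1 and 0.077 in replicate 2, or -0.24 ± 0.45, which does not fix an order. By summed TPM the classes were ordered otherwise: inhibitors made 50.6% and 57.4% of the total of the 40 genes, G1/S genes 20.9% and 18.4%, G1 kinases 20.2% and 17.5%, and G2/M genes 8.31% and 6.74%.

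The libraries were next set against each other on counts scaled by TMM factors, as log2 ratios of replicate 1 over replicate 2. These describe a spread within 1 group, not an effect of a treatment. Levels of the 40 genes kept much of their order between libraries (across genes, Spearman's rho 0.90 and Pearson's r of log2 TPM 0.937, n = 40, and genes are not independent replicates). Of the 20 genes that averaged 100 or more counts, none was beyond 2-fold and higher in replicate 1, and Cdkn1c alone was beyond 2-fold and higher in replicate 2, beside 1.82% and 1.67% of 9673 genes of that count. The ratio of Cdkn1c was -3.18, with an exact Clopper-Pearson interval at 95% of -3.90 to -2.58, on 23 counts in replicate 1 and 185 in replicate 2. Its mean of 104 counts met the minimum of 100 only through replicate 2, the library in which it was high. That of Cdkn1b was -0.85 (-0.99 to -0.71) and that of Cdkn1a -0.48 (-0.53 to -0.44), so that all 3 CIP/KIP genes had intervals wholly on the side of replicate 2.

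Of the same 20 genes, 1 had an interval wholly on the side of replicate 1 (Cdk2, 0.28, 0.090 to 0.47), 11 had intervals on the side of replicate 2, and 8 held 0. Over 9673 genes, 31.0% were on the side of replicate 1 and 34.0% on that of replicate 2. Ratios of the 8635 nuclear protein-coding genes averaging 100 or more counts ran from -3.18, that of Cdkn1c, to 11.4. The median ratio was -0.18 for the 20 genes, against -0.019 for all genes. Among replication genes Mcm2 had a ratio of -0.47 (-0.75 to -0.20), while the intervals of Mcm6, 0.084 (-0.10 to 0.27), and Mcm3, -0.18 (-0.43 to 0.076), held 0. Mki67 was at -0.15 (-0.21 to -0.081) and Top2a at 0.12 (-0.10 to 0.34). The share of mitochondrial counts and the RNA input also differed between the libraries, as given above, and their part in these ratios was not tested. The intervals cover counting error only.

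**Figure D2:**
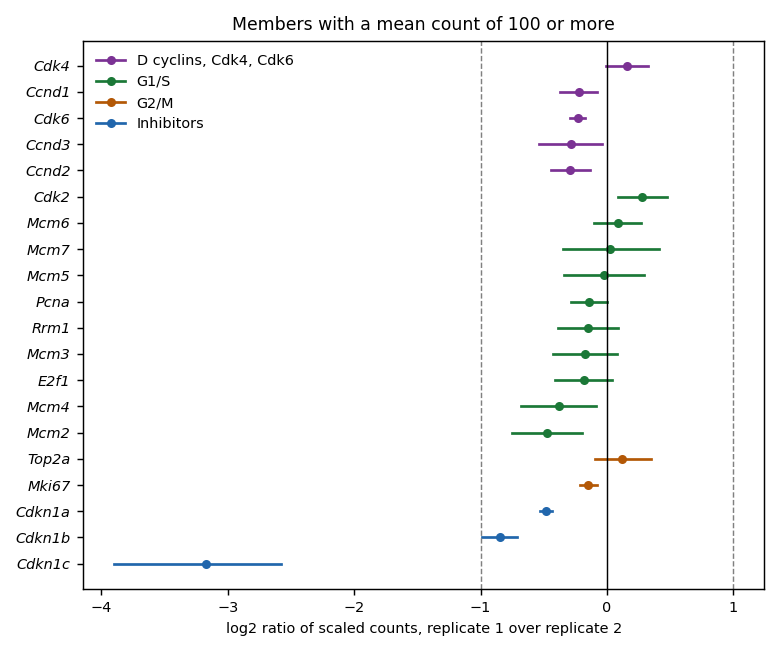
Log2 ratio of TMM-scaled counts, replicate 1 over replicate 2 (horizontal axis), of the 20 genes averaging 100 or more counts; bars are 95% counting intervals and dashed lines mark 2-fold. Cdkn1c lies alone past the left line at -3.18, followed by Cdkn1b at -0.85. Cdkn1c met the count minimum only through replicate 2, the library in which it was high.

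Nuclear RNA can hold transcripts that still carry an intron, so the transcript make-up was read for the 20 genes that reached 1 TPM and have 2 or more annotated transcripts. Coding transcripts led. In the tables made from alignments (called alignment-based here) the leading transcript was protein coding for 20 genes in replicate 1 and 19 in replicate 2, beside 14.3% and 14.6% of 8610 protein-coding genes whose leading transcript was of another type. In the read-based tables, described below, it was protein coding for 18 of the 20 in each library, beside 28.7% and 23.0% of these genes led by another type. In the alignment-based tables the median share of a gene's TPM in coding transcripts was 93.5% in replicate 1 and 94.9% in replicate 2 for the 20 genes. For the 8610 genes it was 73.5% and 78.7%. Transcripts annotated with a retained intron held a median of 5.76% and 3.84% in the 20 genes, against 14.3% and 9.80% in the 8610 genes. In the read-based tables the medians of the 20 genes were 84.0% and 86.9% for coding and 8.83% and 6.69% for retained-intron transcripts. Those of all such genes were 60.2% and 67.3% for coding and 19.1% and 14.5% for retained-intron transcripts. Mki67, Cdkn1b, E2f1, Mcm4 and Cdkn2d had 100% of their TPM in coding transcripts.

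In the alignment-based tables the genes with the most retained-intron TPM by mean were kinases and replication genes. Cdk4 had 50.1% of its TPM in such transcripts in replicate 1 and 64.3% in replicate 2, Cdk2 37.1% and 40.1%, Mcm3 34.3% and 30.4%, Mcm5 17.9% and 36.7%, and Pcna 26.1% and 21.1%. The leading transcript of Cdk4 was the coding Cdk4-201 in replicate 1, at 34.6%, and the retained-intron Cdk4-209 in replicate 2, at 44.3%. Cdk4-209 is a fragment of 468 bases on which 58.4 counts in replicate 2 gave more TPM than 292 counts on Cdk4-201. The shares of Mcm3 and Mcm5 also rest on few counts on short transcripts. Of the Mcm3 counts, 246 of 267 in replicate 1 and 247 of 263 in replicate 2 lay on the coding Mcm3-201. In replicate 2 the retained-intron Mcm5-202 and Mcm5-204, of 595 and 760 bases, held 7.66 and 6.41 of 159 counts. In Top2a coding transcripts held 51.2% and 69.3% of TPM, and the rest lay in processed transcripts. By counts, the coding Top2a-201 held 336 of 382 in replicate 1 and 281 of 306 in replicate 2. Cdkn1a TPM was split between coding transcripts, with 72.2% and 84.3% in Cdkn1a-201 and 26.4% and 11.8% in Cdkn1a-203.

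**Figure D3:**
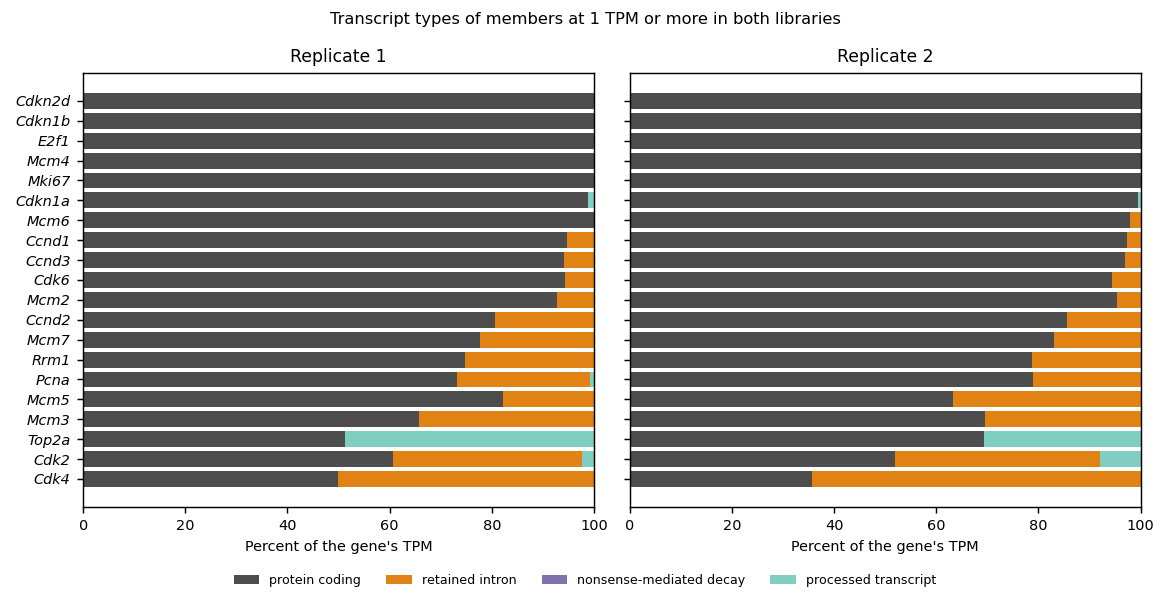
Percent of each gene's TPM by annotated transcript type (horizontal axis) in replicate 1 (left) and replicate 2 (right), alignment-based tables, for the 20 genes at 1 TPM or more in both libraries. Coding transcripts fill most bars, and Cdk4 has the widest retained-intron segment, 50.1% and 64.3%.

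A further deposited table quantified the same libraries from the read files in place of alignments (called read-based here). Both tables and both libraries named the same leading transcript for 15 of the 20 genes, and the other 5 were Cdk4, Cdk6, Mcm5, Mcm7 and Rrm1. For Rrm1 the alignment-based tables led with the coding Rrm1-201 at 74.7% in replicate 1 and 78.7% in replicate 2, and the read-based tables with the retained-intron Rrm1-203 at 31.7% and 33.1%. Retained-intron transcripts together held 68.8% and 62.8% of read-based Rrm1 TPM, beside 55.9% and 63.2% of that of Cdk4. For Mcm5 the alignment-based lead was Mcm5-203 at 70.6% in replicate 1 and Mcm5-205 at 29.1% in replicate 2, against Mcm5-201 at 59.7% and 61.1% in the read-based tables. For Cdk6 the alignment-based lead was Cdk6-202 at 43.7% and 65.0%, and in replicate 1 the read-based lead was Cdk6-203 at 31.4%. For Mcm7 the read-based lead in replicate 1 was the retained-intron Mcm7-203 at 31.3%, where the alignment-based one was the coding Mcm7-201 at 44.7%.

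Gene totals differed as well for a few genes. Over the 37 genes averaging 10 or more counts, the median ratio of the read-based to the alignment-based count was 1.30 in replicate 1 and 1.57 in replicate 2, against 1.35 and 1.57 over 11650 protein-coding genes. In 7 of the 37 the read-based count was at least 2 times the other in both libraries, beside 12.6% of the 11650 genes. Birc5 had 402 and 336 read-based counts, against 50 and 48 alignment-based counts. Nearly all of its read-based counts, 399.5 and 328.5, lay on the long transcript Birc5-202. Tyms had 408 and 458 read-based counts, against 65 and 64 alignment-based counts, with 291 and 255 of the read-based ones on Tyms-201.

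**Figure D4:**
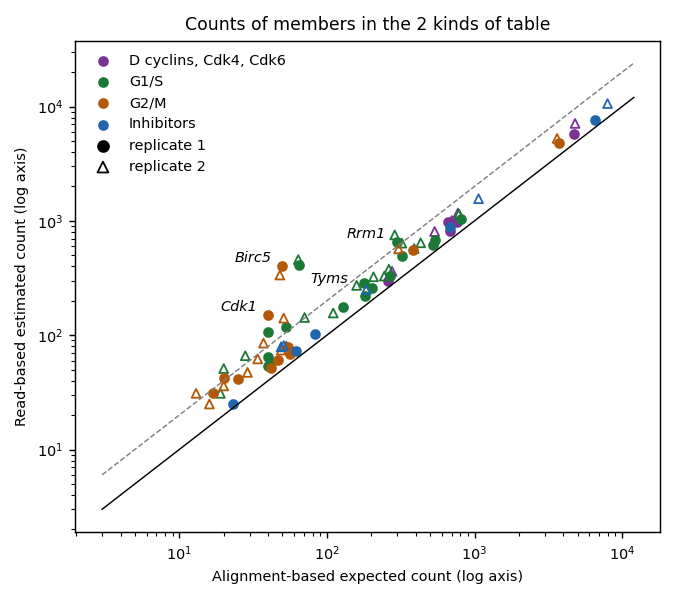
Read-based estimated count (vertical log axis) against alignment-based expected count (horizontal log axis) of the 37 genes averaging 10 or more counts; filled circles are replicate 1 and open triangles replicate 2, the solid line marks equal counts and the dashed line a 2-fold higher read-based count. Birc5 and Tyms lie farthest above the dashed line, with read-based counts of 402 and 408 in replicate 1.

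Cdk1 had 151 and 141 read-based counts, against 40 and 51 alignment-based counts, of which 77.2 and 64.7 lay on Cdk1-207, a transcript at 0 in the alignment-based tables. Rrm1 had 657 and 753 read-based counts, against 298 and 288 alignment-based counts. Of these, 228 and 272 lay on the retained-intron Rrm1-204, against 13 and 11 in the alignment-based tables. Cdc45, Ccne2 and Aurka were the other 3, with ratios between 2.02 and 2.66. The levels of these 7 genes thus depend on the table. The number of the 40 genes at 1 TPM or more in both libraries was 20 in either table, but 3 genes changed places with 3 others. Mcm2, Mcm4 and Cdkn2d reached it in the alignment-based tables alone, and were at 0.823, 0.626 and 0.613 TPM in the read-based table of replicate 1. Cdk1, Birc5 and Tyms reached it in the read-based tables alone, where Cdk1 was at 2.02 TPM in replicate 1 and 3.40 TPM in replicate 2, Birc5 at 1.18 and 1.91 TPM, and Tyms at 1.31 and 2.48 TPM. Read-based TPM was lower in general. Over the 11650 genes the median log2 TPM ratio, alignment-based over read-based, was 0.77 in replicate 1 and 0.31 in replicate 2. The read-based counts of Mcm2, Mcm4 and Cdkn2d in replicate 1 were 1.28, 1.22 and 1.16 times the alignment-based ones. The counts of MCM subunits, G2/M genes and inhibitors at 1 TPM or more given above are therefore those of the alignment-based tables.

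Other genes of the same pathways were read from 6 lists that hold none of the 40 genes, beside 41.8% of all nuclear protein-coding genes at 1 TPM or more in both libraries. In all, 82 of 118 genes reached it. Of the list genes named below, Orc4, Rfc2, Rb1, Rbl2, Rbbp4, Ube2c and Ccnt1 overlap an exon of another counted gene. Their counts may include reads of that gene. Of 19 genes of origin licensing and firing, 14 did and 2 were below in both, with medians of 2.50 TPM in replicate 1 and 2.99 TPM in replicate 2. Orc4 and Orc3, subunits of the origin recognition complex, were highest at means of 25.5 ± 6.92 and 21.3 ± 2.97 TPM (SD, n = 2), and Mcm8 lowest at 0.23 and 0.40 TPM. Of 25 genes of DNA polymerases and the fork, 19 did and 5 were below in both. Among these the clamp loader subunit Rfc2 was at 48.9 and 34.0 TPM and the polymerase delta subunit Pold3 at 16.4 and 18.8 TPM.

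Of 19 genes of the RB, E2F and DREAM list, 14 reached 1 TPM in both libraries. The retinoblastoma gene Rb1 was highest at 16.7 TPM in replicate 1 and 21.7 TPM in replicate 2, and its relative Rbl2, a DREAM subunit, came next by mean at 7.17 and 12.9 TPM. In replicate 1 Rbl1 and Rbbp4, at 10.04 and 7.26 TPM, stood above Rbl2. The atypical E2F repressor E2f7 was lowest at 0.21 and 0.24 TPM. Of 30 further mitosis genes, 11 reached 1 TPM in both and 14 were below in both, with medians of 0.66 and 1.00 TPM, the lowest share of the 6 lists. Incenp, the scaffold of the chromosomal passenger complex, was at 11.0 and 10.03 TPM, Mad2l1 of the spindle checkpoint at 4.49 and 6.84 TPM, and the lowest by mean were Cdc25c at 0.15 and 0.02 TPM and Ube2c at 0.07 and 0.10 TPM.

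The antiproliferative and p53 list stood highest by median, at 10.6 TPM in replicate 1 and 13.4 TPM in replicate 2, with 15 of 16 genes at 1 TPM or more in both. The growth arrest gene Gadd45b was at 186 and 136 TPM and the polo-like kinase gene Plk2 at 157 and 116 TPM, near the level of Cdkn1a, while the INK4 gene Cdkn2b was lowest at 0.22 and 0.12 TPM. All 9 genes of CDK activation reached 1 TPM, with the transcription kinase Cdk9 at 54.5 and 40.5 TPM and its cyclin Ccnt1 at 14.9 and 22.1 TPM. The phosphatase Cdc25a, which removes inhibitory phosphate from Cdk2, was lowest of these at 1.27 and 2.25 TPM.

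**Figure D5:**
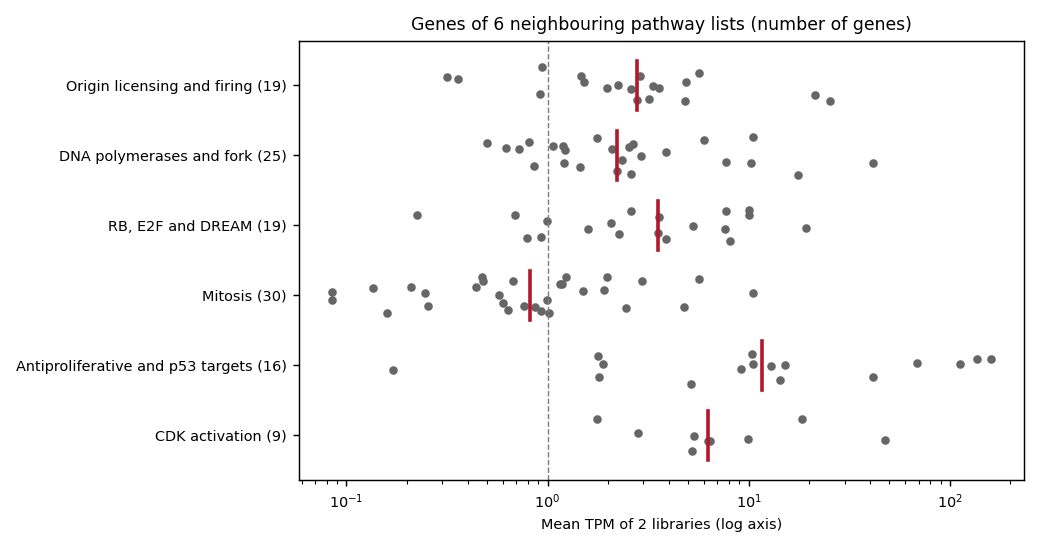
Mean TPM of both libraries (horizontal log axis) of each gene in 6 pathway lists, 118 genes in all; grey points are genes, red bars list medians, and the dashed line is 1 TPM. Genes of mitosis spread to both sides of the line, with 14 of 30 below it in both libraries, and 15 of 16 antiproliferative and p53 genes lie above it.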

How the data were processed

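Nucleoplasmic RNA was measured in 2 libraries of 1 group. All tables are on mm10 with GENCODE M21, per the file headers. Gene tables, as deposited, give expected counts (estimates that divide ambiguous reads among genes) and, normalised for length, TPM and FPKM. The deposited read-based tables hold estimated counts and TPM per transcript. The percent of a gene's TPM in each transcript was recomputed from the deposited TPM. The deposited credibility bounds held the TPM of 34 of the 40 genes in replicate 1 and 32 in replicate 2, and were not used as errors. No source used here names the aligner, the quantification tools, trimming or the strand setting. Exons of 13 of the 40 genes overlap a counted gene, each on the opposite strand, so that their counts are uncertain. Exons of some list genes, as named above, and of the markers Csf1r and Alas2 also overlap a counted gene.

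Records of tRNA, spike-in and phage (26345) were left out. Expected counts were rounded, which put the limit of a count of 0 (3 counts) at 0.126 and 0.145 CPM, and scaled by edgeR 4.0.16 TMM factors of 0.997 and 1.00. Ratios were replicate 1 over replicate 2 with a prior count of 0.5, at a mean count of 100 or more. Role class medians were taken on log2(TPM + 0.1). The ratio calculation was tested on simulated data. Intervals and limits cover counting error only. Promoters come from RefSeq (GRCm38.p6), and proteins were not compared. R 4.3.3, DESeq2 1.42.0 (size factors), Python 3.11.15, pandas 2.3.3, numpy 2.4.6, scipy 1.17.1 and matplotlib 3.10.9 were used. Alternatives were other scalings, thresholds, pseudocounts and units, read-based tables and single libraries.

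The genes and lists were chosen with earlier results of these data known. Values per library were printed for the 4 highest and 2 lowest genes of each role class, all inhibitors and G1 kinases, genes beyond 2-fold between libraries, and genes at 1 TPM or more whose leading transcript differed between tables, and for the 2 highest and the lowest gene of each pathway list, of which 1 is not reported here. Other genes were named after their values were seen.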

Additional observations from a re-analysis of the deposited data

How the results depend on the processing

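Of 70 alternative values, 56 kept their direction and moved by less than the limit set for each (the spread between replicates for a class difference, 1.5 times for a count, a fixed difference for a ratio or share), 12 moved by more and 2 changed sign. For a class difference a single library lies within that spread by construction, so it could only keep or change sign. FPKM is proportional to TPM within a library and could shift a class difference through the pseudocount alone. The 56 thus include values that could hardly move, and are not a measure of robustness. The number of genes at 1 TPM or more in both libraries (20 of 40) was 37 with TPM over nuclear protein-coding genes, 8 at a threshold of 5 TPM, and 22 to 23 with each library alone. The inhibitors minus G1/S difference (-0.24) was 0.14 over genes averaging 10 or more counts, -0.53 in the read-based table, -0.62 with the G1 kinases counted as G1/S, -0.75 without genes that overlap an exon (an alternative chosen after seeing the data), and -0.56 to 0.077 with each library alone. The G2/M minus G1/S difference (-1.68) was -0.98 with a pseudocount of 1 and -2.01 to -1.34 with each library alone. The G1 kinases minus G1/S difference (1.61) was 1.33 in the read-based table, 1.30 with a pseudocount of 1 and 1.56 to 1.65 with each library alone, and could not be had without overlapping genes, since all 5 G1 kinases overlap. The number of genes beyond 2-fold between libraries (1 of 20) was 3 of 40 with no count minimum, where Cdc20 (8 and 3 counts) and Cdkn2a (0 and 3 counts) joined Cdkn1c, and 2 of 20 on deposited TPM, where Cdkn1b joined at a log2 ratio of -1.15. The median ratio of the 20 genes was -0.46 on deposited TPM. Coding leads in both libraries (19 of 20 genes) were 7 of 8 at 5 TPM or more and 19 to 20 with each library alone. The count of pathway genes (82 of 118) was 30 at 5 TPM. The cause of these shifts was not tested, other than that higher thresholds and fewer genes lower a count by construction. Depth limits the G2/M genes most, since 11 of 13 had a mean count below 100. No paired analysis was possible because there is 1 group. The planned comparison of protein sequences was not run.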

Other observations

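Complexes that hold and divide chromosomes, chosen after values of these data were seen, were read in the same libraries, in which 41.8% of all nuclear protein-coding genes reached 1 TPM in both. All 9 cohesin genes, whose ring also shapes chromatin loops outside mitosis, reached 1 TPM in both libraries, with medians of 12.8 TPM in replicate 1 and 17.9 TPM in replicate 2. Pds5a was at 40.04 and 57.4 TPM, Wapl, which releases cohesin, at 18.1 and 24.5 TPM, and Smc3 lowest at 3.64 and 5.72 TPM. Of 8 condensin genes, which compact mitotic chromosomes, 7 reached it, with medians of 2.76 and 3.79 TPM, Smc4 highest at 10.9 and 10.3 TPM and Ncapg lowest at 1.07 and 0.51 TPM. All 15 genes listed for the anaphase-promoting complex reached it, with medians of 4.79 and 6.88 TPM. The list includes Fzr1, an activator of the complex, at 6.96 and 6.35 TPM, while the mitotic activator Cdc20 was at 0.31 and 0.07 TPM. Within this complex Anapc15 was at 76.0 and 54.9 TPM and Anapc10 lowest at 1.33 and 2.18 TPM. Pds5a, Ncapg, Fzr1 and Anapc15 overlap an exon of another counted gene, and their counts may include its reads.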
